A study of Mus musculus with 15 samples.

Results

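The genes described here encode the machinery of mitosis: the cyclins and kinases that start it, the condensins, kinetochore, spindle, checkpoint and cytokinesis proteins that carry it out, and 2 parts of the ubiquitination system that ends it. They were read in RAW264.7 cells, an established mouse macrophage line. A list of 48 genes was taken, and each was represented by the probe set that the array's gene table gave that symbol alone. Of the 48, 46 had such a probe set, out of 22180 genes represented in the same way, and each of the 46 had only 1 such probe set. All 46 lay above the 40th percentile of their array (log2 values of 3.16 to 3.22) on all 15 arrays, and all were among the 15468 genes tested. The 2 without a value were Ccnb1, which encodes cyclin B1 and was not found in the gene table, and Ncapg, a condensin subunit whose probe set also named Lcorl. Neither was tested for expression, and both entered only the counts of promoter motifs below.

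A cell enters mitosis when Cdk1, bound to A- and B-type cyclins, becomes active. Condensins and topoisomerase II then compact and untangle the chromosomes, kinetochores built on the centromeres capture spindle microtubules, and the spindle checkpoint holds the anaphase-promoting complex inactive until every chromosome is attached. Cdc20 then lets that complex mark securin and the cyclins for destruction, the sister chromatids part, and the central spindle directs cytokinesis. Many of these genes are transcribed mainly in G2 and M phase, under the MuvB complex with B-Myb and FoxM1, through a short promoter element called the CHR (cell cycle genes homology region). RAW264.7 cells divide continuously in culture, and LPS, a bacterial outer-membrane glycolipid sensed through Tlr4, is known to activate inflammatory genes in them.

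The study asked how 2 hydroxylated derivatives of docosahexaenoyl ethanolamide, 13-HDHEA and 16-HDHEA, alter the response of these cells to LPS, and it used 5 groups of 3 arrays. The groups received LPS with 5.0 µM 13-HDHEA, LPS with 5.0 µM 16-HDHEA, LPS with 2.5 µM of each compound, LPS with vehicle, and vehicle with PBS in place of LPS, called unstimulated here. Compound or vehicle (0.1% ethanol in all groups) was added 30 min before 1.0 µg/mL LPS, and cells were harvested after 24 h. No compound was given without LPS, and the replicates are 3 experiments on 1 line, each with 1 array per group.

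The deposited values are log2 signals per probe set after RMA, with array medians of 3.62 to 3.69. With 3 arrays a group, the number of arrays limits the precision of every value below. The stimulation was checked with 8 LPS response genes (Tnf, Il1b, Il6, Nos2, Ptgs2, Ccl5, Acod1 and Irf7), and all 8 rose with LPS and vehicle, by a median of 5.65 log2. The macrophage label was checked with 10 markers, all of which lay above the 40th percentile on all arrays. The sum of these 10 markers on the linear scale was 23400 to 25400 in LPS with vehicle and 21400 to 23100 in unstimulated cells. Of the fibroblast markers 4 of 7, of the lymphocyte markers 0 of 5 and of the neutrophil markers 0 of 6 lay above that percentile on every array given LPS and vehicle. The fibroblast sum was 90.2 to 99.8 with LPS and vehicle and 66.5 to 82.3 in unstimulated cells. The lymphocyte sum was 32.0 to 41.3 with LPS and vehicle and 33.7 to 38.7 unstimulated, and the neutrophil sum 41.7 to 47.7 with LPS and vehicle and 38.9 to 44.2 unstimulated. Epithelial and endothelial markers, of which 6 of 6 lay above the percentile, summed to 144 to 155 with LPS and vehicle and to 122 to 146 unstimulated. The part of these markers in the results on mitotic genes was not tested.

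All 46 mitotic genes fell after LPS with vehicle. Of all genes tested, 16.3% fell in this comparison (limma, adjusted p under 0.05). Each of the 46 fell by more than 2-fold, a size that 3.36% of all genes tested reached. Of the 46, 14 fell by more than 4-fold, a size that at most the same 3.36% of all genes can have reached. The median difference of the 46, LPS with vehicle minus unstimulated, was -1.89 log2, against 0.000209 over all genes tested. The differences ran from -2.84 for Ccnb2 to -1.14 for Smc4, and the highest adjusted p was 0.000234, for Cdc20. In 46 of 46 genes the 3 arrays with LPS and vehicle lay wholly below the 3 unstimulated arrays, which held for 22.2% of all genes tested. In these bulk samples, fewer cells in or near mitosis and less of each mRNA per cell cannot be told apart.

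**Figure D1:**
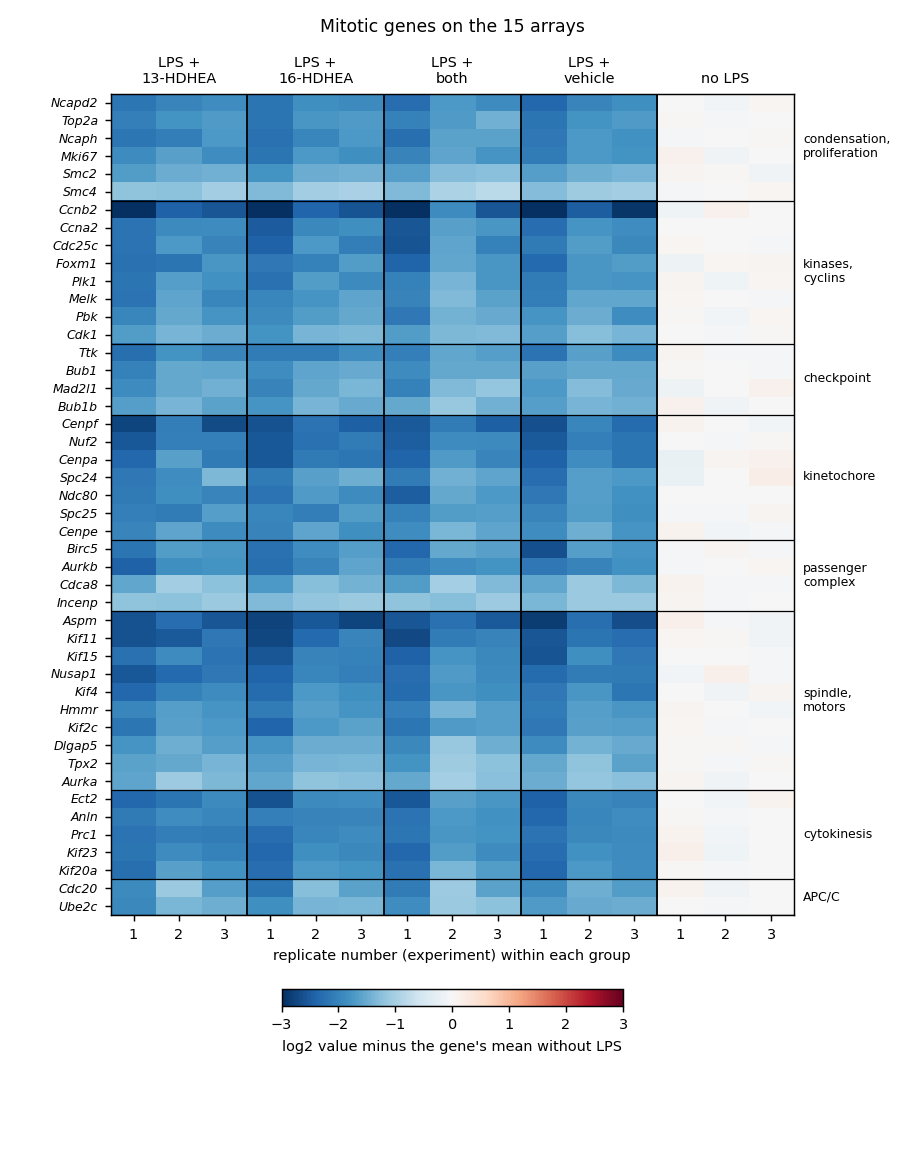
Each row is 1 of the 46 mitotic genes, grouped by role, and each column 1 of the 15 arrays. Colour is the log2 value minus the mean of the gene's 3 unstimulated arrays, so that the 12 LPS columns appear as 1 block below 0 whichever compound was given.

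The 95% intervals of many of the 46 falls overlapped. Those of 27 other genes overlapped that of Ccnb2, 19 overlapped that of Smc4, 5 overlapped both, and 34 of the 46 held the median. Each interval is that of 1 gene, and all genes were read on the same arrays. Overlap therefore does not show that 2 falls were of like size, and differences between genes were not tested. Within each experiment the fall was present, with medians of -2.17, -1.64 and -1.83 log2 in experiments 1, 2 and 3. All 138 differences, 46 genes in 3 experiments, were below -1. The share of all genes with such differences in each experiment was not counted.

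**Figure D2:**
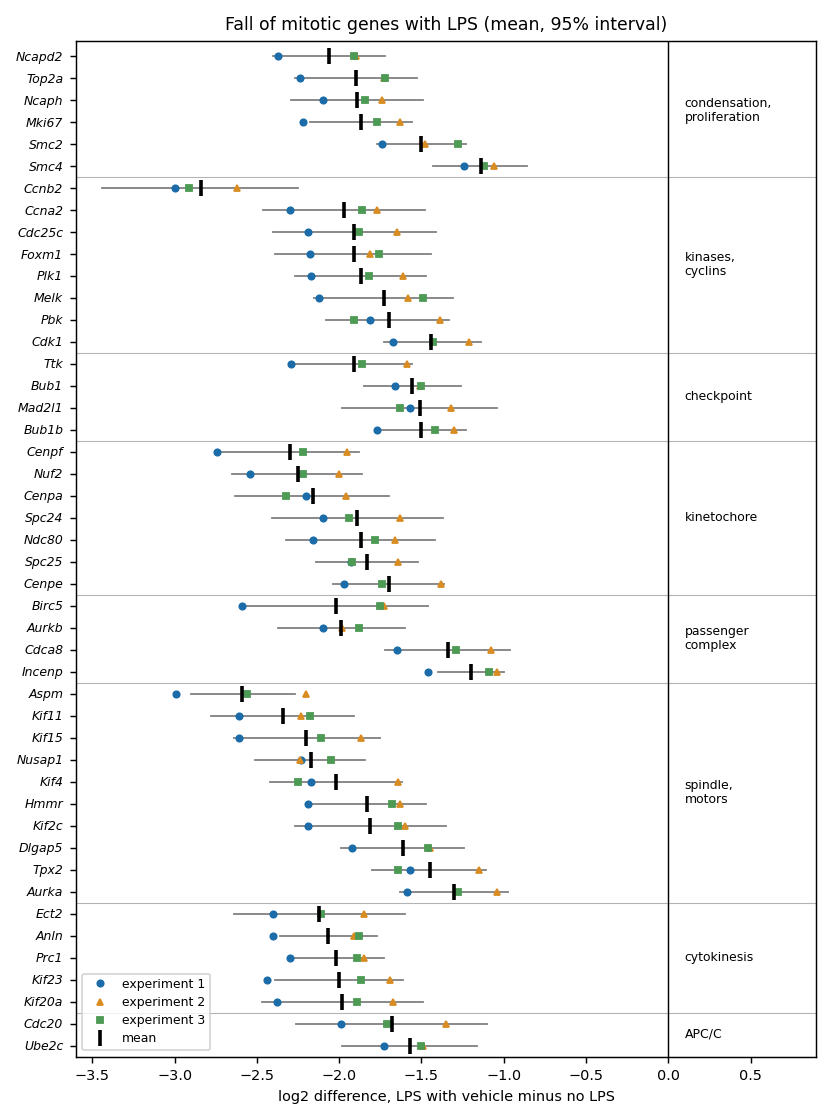
Vertical ticks are the mean log2 differences of the 46 mitotic genes, LPS with vehicle minus unstimulated, with 95% limma intervals, ordered by role, and symbols are the 3 experiments. Every interval lies below 0, from Ccnb2 at -2.84 to Smc4 at -1.14.

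The promoters of the 6 genes with the largest falls that have an entry in the promoter table are printed because these genes moved together, and they show which known cell-cycle elements stand near the start sites. Each runs from 250 bases before to 50 bases after the annotated start, 5′ to 3′ on the gene's own strand, from RefSeq GRCm38.p6. Capitals mark the motifs searched for on both strands: the CHR (TTTGAA or TTCGAA), the CCAAT box (CCAAT), which binds NF-Y, and the E2F site (TTTGGCGC, TTTCCCGC, TTTGCCGC, TTTCGCGC or TTTGGCGG). A motif on the opposite strand reads as its reverse complement, such as TTCAAA for TTTGAA and ATTGG for CCAAT. In order of the size of the fall, the promoters are those of Ccnb2 (chr9:70421505-70421804, minus strand), Aspm (chr1:139454523-139454822, plus strand), Kif11 (chr19:37376132-37376431, plus strand), Cenpf (chr1:189688037-189688336, minus strand), Nuf2 (chr1:169531415-169531714, minus strand) and Kif15 (chr9:122950831-122951130, plus strand).
Ccnb2: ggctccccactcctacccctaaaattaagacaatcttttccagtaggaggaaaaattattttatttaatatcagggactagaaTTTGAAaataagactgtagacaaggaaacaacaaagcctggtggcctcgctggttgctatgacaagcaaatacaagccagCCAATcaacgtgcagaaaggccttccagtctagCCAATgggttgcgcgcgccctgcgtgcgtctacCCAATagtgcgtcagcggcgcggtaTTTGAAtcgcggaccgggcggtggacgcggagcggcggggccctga
Aspm: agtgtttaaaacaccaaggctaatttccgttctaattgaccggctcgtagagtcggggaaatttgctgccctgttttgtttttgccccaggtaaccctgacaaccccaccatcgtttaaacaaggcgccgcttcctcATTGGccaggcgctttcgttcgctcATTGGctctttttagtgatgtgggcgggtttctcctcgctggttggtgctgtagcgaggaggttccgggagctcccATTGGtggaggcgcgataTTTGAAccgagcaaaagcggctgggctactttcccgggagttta
Kif11: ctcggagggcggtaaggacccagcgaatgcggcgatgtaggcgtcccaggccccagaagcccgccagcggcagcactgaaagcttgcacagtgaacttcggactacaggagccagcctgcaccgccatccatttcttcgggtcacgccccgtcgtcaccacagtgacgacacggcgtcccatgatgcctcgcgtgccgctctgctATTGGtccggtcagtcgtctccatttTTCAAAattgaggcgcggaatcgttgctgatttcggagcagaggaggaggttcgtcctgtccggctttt
Cenpf: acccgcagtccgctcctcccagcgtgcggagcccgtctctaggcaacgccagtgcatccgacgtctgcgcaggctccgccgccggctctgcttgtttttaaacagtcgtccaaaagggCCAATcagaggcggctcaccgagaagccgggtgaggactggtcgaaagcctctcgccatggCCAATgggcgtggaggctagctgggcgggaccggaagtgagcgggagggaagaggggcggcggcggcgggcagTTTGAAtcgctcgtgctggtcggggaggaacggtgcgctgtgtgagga
Nuf2: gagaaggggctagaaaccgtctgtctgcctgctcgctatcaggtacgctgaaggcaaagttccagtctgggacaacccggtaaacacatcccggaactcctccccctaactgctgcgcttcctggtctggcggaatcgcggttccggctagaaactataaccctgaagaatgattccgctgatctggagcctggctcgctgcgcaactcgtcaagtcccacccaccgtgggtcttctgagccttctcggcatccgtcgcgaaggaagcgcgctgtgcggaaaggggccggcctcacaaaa
Kif15: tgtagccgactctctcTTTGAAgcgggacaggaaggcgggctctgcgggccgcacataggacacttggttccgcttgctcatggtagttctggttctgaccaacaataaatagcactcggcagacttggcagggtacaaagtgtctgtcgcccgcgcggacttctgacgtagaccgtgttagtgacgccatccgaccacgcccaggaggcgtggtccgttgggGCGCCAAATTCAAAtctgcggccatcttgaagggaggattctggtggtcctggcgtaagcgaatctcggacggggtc

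Positions here are those of a motif's first base, counted from the start base as 0. Ccnb2, Aspm and Cenpf carry a CHR that begins 4, 6 and 2 bases after the start base, with CCAAT boxes before it, the nearest at -21, -12 and -71. In Kif11 and Kif15 a CHR begins at -19. It follows a CCAAT box at -45 in Kif11, and in Kif15 it adjoins an E2F site at -27. Nuf2, which fell by 2.25 log2, holds none of the 3 motifs in this window. Of the 48 listed genes, 37 had a promoter entry, and 29 of these 37 (78.4%) held a CHR, against 14.3% of 11993 other tested genes and 19.2% of all 32851 promoters of the table. A CCAAT box was found in 27 (73.0%), against 37.7% of the other tested genes and 37.4% of all promoters, and an E2F site in 5 (13.5%), against 4.40% and 2.78%. Both a CHR and a CCAAT box stood in 25 (67.6%), against 5.85% of the other tested genes and 7.52% of all promoters. Within 50 bases of the start, a window chosen after the positions were seen, 26 of the 37 (70.3%) began a CHR, against 3.46% of the other tested genes.

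Among the mitotic genes, the median difference was -1.89 log2 for the 28 measured genes with a CHR and -1.90 for the 7 without. Outside the mitotic list, 18.9% of 1718 tested genes with a CHR fell with LPS and vehicle, against 16.8% of all 11993. The share was 23.8% of 701 genes with both a CHR and a CCAAT box, and 35.8% of 528 genes with an E2F site. Falls of more than 2-fold were found in 5.59% of the genes with a CHR, 8.42% of those with both a CHR and a CCAAT box and 11.0% of those with an E2F site, against 3.16% of all 11993. These shares were not tested. A match is only a match of letters; binding was not measured.

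Of the genes that start mitosis, all 8 measured cyclins, kinases and regulators fell, with a median of -1.89 log2. Ccnb2 encodes cyclin B2, a partner of Cdk1. Its log2 values were 6.52, 7.18 and 6.76 with LPS and vehicle in experiments 1 to 3, against 9.52, 9.80 and 9.66 unstimulated. The groups were far apart, and Ccnb2 fell by 2.84 log2 (SE 0.278, 7.17-fold, adjusted p = 2.65e-06). Cdk1, the kinase that drives entry, read 7.48, 7.86 and 7.75 with LPS and vehicle, against 9.15, 9.08 and 9.18 unstimulated, and fell by 1.44 log2 (SE 0.137, 2.71-fold, adjusted p = 2.05e-06). This was the smallest fall of the role, and the 95% intervals of the 2 differences (-1.73 to -1.14 for Cdk1 and -3.44 to -2.25 for Ccnb2) did not overlap.

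Plk1, a kinase that matures centrosomes and helps to switch Cdk1 on, had values of 8.20, 8.54 and 8.53 with LPS and vehicle, against 10.37, 10.15 and 10.35 unstimulated. It fell by 1.87 log2 (SE 0.185, 3.65-fold, adjusted p = 2.95e-06). Foxm1, a transcription factor for G2 and M phase genes, read 5.85, 6.42 and 6.51 with LPS and vehicle, against 8.03, 8.23 and 8.26 unstimulated, and fell by 1.91 log2 (SE 0.222, 3.77-fold, adjusted p = 1.32e-05). The array of experiment 1 was the lowest of the 3 LPS arrays for Ccnb2, Cdk1, Plk1 and Foxm1, and no LPS array reached an unstimulated one. The remaining genes of this role lay between these sizes. They are Ccna2, which encodes cyclin A2 (-1.97 log2), Cdc25c, a phosphatase that activates Cdk1 (-1.91), and the kinases Melk (-1.73) and Pbk (-1.70).

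Chromosome structure and proliferation marker genes fell as well, all 6 of those measured, with a median of -1.88 log2. Mki67, which encodes the proliferation marker Ki-67 that coats mitotic chromosomes, read 8.84, 9.20 and 9.14 with LPS and vehicle, against 11.06, 10.83 and 10.91 unstimulated. It fell by 1.87 log2 (SE 0.143, 3.66-fold, adjusted p = 2.68e-07). Top2a encodes topoisomerase II alpha, and its values were 8.07, 8.47 and 8.56 with LPS and vehicle and 10.31, 10.20 and 10.28 unstimulated, a difference of -1.90 log2 (SE 0.171, adjusted p = 1.28e-06). For both genes every LPS array lay more than 1 log2 unit below every unstimulated array.

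The condensin genes spread over nearly a whole log2 unit. Ncapd2, a subunit of condensin I, fell by 2.06 log2 (4.16-fold, adjusted p = 2.84e-07), and Ncaph, the kleisin of the same complex, fell by 1.89. Smc2 and Smc4 encode the ATPase pair that condensin I and II share. Smc4 read 8.93, 9.18 and 9.19 with LPS and vehicle, against 10.18, 10.24 and 10.31 unstimulated, and its fall by 1.14 log2 (SE 0.132, 2.20-fold, adjusted p = 1.32e-05) was the smallest of the 46. Smc2 fell by 1.50 log2. The 95% interval of Smc4, -1.43 to -0.856, and that of Ncapd2, -2.40 to -1.72, did not overlap.

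All 4 spindle checkpoint genes fell, with a median of -1.53 log2. Bub1, a kinetochore kinase of the checkpoint, read 7.28, 7.37 and 7.37 with LPS and vehicle, against 8.94, 8.88 and 8.88 unstimulated, and fell by 1.56 log2 (SE 0.137, 2.94-fold, adjusted p = 9.38e-07). Its arrays were even, with an SD of 0.0548 with LPS and vehicle and 0.0373 unstimulated (n = 3 each). Ttk, which encodes the checkpoint kinase Mps1, had values of 6.94, 7.52 and 7.26 with LPS and vehicle and 9.23, 9.11 and 9.12 unstimulated, and fell by 1.91 log2 (SE 0.163, adjusted p = 7.45e-07). Bub1b, which encodes BubR1, fell by 1.50 log2 (SE 0.125, adjusted p = 6.07e-07). Mad2l1, the Mad2 protein that captures Cdc20, fell by 1.51 log2 (SE 0.218, adjusted p = 1.00e-04). The intervals of all 4 overlapped.

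All 7 centromere and kinetochore genes fell, with a median of -1.89 log2. Ndc80, Nuf2, Spc24 and Spc25 form the 4-part Ndc80 complex, which binds microtubules, and their differences were -1.87, -2.25, -1.89 and -1.83 log2. Ndc80 itself read 7.48, 7.98 and 7.83 with LPS and vehicle, against 9.64, 9.64 and 9.61 unstimulated (SE of the difference 0.208, adjusted p = 8.70e-06). The unstimulated arrays of Ndc80 spanned under 0.1 log2, while those with LPS and vehicle spanned about 0.5. Cenpf, a large outer kinetochore protein that accumulates in G2, read 5.80, 6.45 and 6.10 with LPS and vehicle, against 8.53, 8.40 and 8.33 unstimulated. It fell by 2.30 log2, the largest fall of the role (SE 0.195, 4.94-fold, adjusted p = 6.72e-07). Cenpe, a kinetochore motor, had values of 7.73, 8.15 and 7.82 with LPS and vehicle and 9.71, 9.53 and 9.57 unstimulated, and its fall by 1.70 log2 (SE 0.156, adjusted p = 1.46e-06) was the smallest. Cenpa, the histone H3 variant that marks the centromere, fell by 2.16 log2 (SE 0.215, adjusted p = 3.09e-06).

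The chromosomal passenger complex, which corrects faulty attachments, had 4 genes on the list, and all fell, with a median of -1.66 log2. Birc5 encodes survivin, and it read 5.06, 6.04 and 5.92 with LPS and vehicle, against 7.65, 7.77 and 7.67 unstimulated, a difference of -2.02 log2 (SE 0.263, 4.06-fold, adjusted p = 3.79e-05). Experiment 1 stood apart here, with a difference of -2.59 log2 against -1.73 and -1.75 in experiments 2 and 3. Aurkb, the kinase of the complex, had values of 7.35, 7.48 and 7.66 with LPS and vehicle and 9.45, 9.46 and 9.54 unstimulated, and fell by 1.99 log2 (SE 0.179, 3.96-fold, adjusted p = 1.28e-06). Incenp, its scaffold, read 8.02, 8.29 and 8.28 with LPS and vehicle, against 9.48, 9.32 and 9.37 unstimulated, and fell by only 1.20 log2 (SE 0.0931, 2.29-fold, adjusted p = 3.17e-07). The interval of Incenp, -1.40 to -0.997, lay outside those of Aurkb (-2.37 to -1.60) and Birc5 (-2.59 to -1.46). Cdca8, which encodes borealin, fell by 1.34 log2 (SE 0.177, adjusted p = 4.42e-05).

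All 10 spindle motor and assembly genes fell, by sizes from -2.59 to -1.30 log2 and with a median of -1.93. Aspm, a protein of the spindle poles, read 5.12, 5.69 and 5.30 with LPS and vehicle, against 8.11, 7.89 and 7.86 unstimulated. It fell by 2.59 log2 (SE 0.147, 6.00-fold), and its adjusted p of 1.58e-08 was the lowest of the 46. Kif11, the kinesin Eg5 that pushes the poles apart, read 7.03, 7.39 and 7.31 with LPS and vehicle, against 9.65, 9.63 and 9.49 unstimulated, and fell by 2.34 log2 (SE 0.204, 5.08-fold, adjusted p = 8.83e-07). Kif15, a kinesin that can share that work, fell by 2.20 log2.

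Aurka, the centrosomal Aurora kinase, had the smallest fall of the spindle genes. Its values were 7.80, 8.14 and 8.03 with LPS and vehicle and 9.39, 9.18 and 9.32 unstimulated, and it fell by 1.30 log2 (SE 0.154, 2.47-fold, adjusted p = 1.60e-05). Its activator Tpx2 fell by 1.45 log2 (SE 0.160, adjusted p = 7.96e-06), and the intervals of these 2, -1.63 to -0.971 and -1.80 to -1.11, overlapped, while both lay outside that of Aspm, -2.90 to -2.27. Nusap1, which bundles spindle microtubules, fell by 2.17 log2, and Kif4, a chromosome-bound kinesin, fell by 2.02. Hmmr, Kif2c and Dlgap5, which act on spindle assembly or on microtubule ends, differed by -1.83, -1.81 and -1.61 log2.

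The 5 central spindle and cytokinesis genes all fell, with a median of -2.02 log2, the lowest of the 8 roles. They were close to one another, from -2.12 for Ect2 to -1.98 for Kif20a. Ect2, the exchange factor that activates RhoA at the cleavage site, read 8.12, 8.61 and 8.53 with LPS and vehicle, against 10.52, 10.46 and 10.64 unstimulated (SE 0.242, 4.35-fold, adjusted p = 1.12e-05). Anln, which encodes the ring protein anillin, read 7.32, 7.72 and 7.81 with LPS and vehicle, against 9.72, 9.63 and 9.69 unstimulated, and fell by 2.07 log2 (SE 0.137, adjusted p = 7.14e-08). Prc1, which bundles the central spindle, had values of 7.69, 7.95 and 7.99 with LPS and vehicle and 9.99, 9.80 and 9.88 unstimulated, and fell by 2.02 log2 (SE 0.132, 4.05-fold, adjusted p = 6.28e-08). Kif23, a kinesin of the central spindle, fell by 2.00 log2 (SE 0.182). Kif20a, another, read 7.45, 8.08 and 7.92 with LPS and vehicle and 9.83, 9.76 and 9.81 unstimulated (SE 0.228, adjusted p = 1.23e-05). The intervals of these 5 differences all overlapped.

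Cdc20, the activator of the anaphase-promoting complex, read 7.92, 8.35 and 8.12 with LPS and vehicle, against 9.90, 9.70 and 9.83 unstimulated. It fell by 1.68 log2 (SE 0.268, 3.21-fold, adjusted p = 0.000234), with the second largest SE of the 46. Ube2c, the ubiquitin-conjugating enzyme that works with the complex, had values of 7.60, 7.79 and 7.83 with LPS and vehicle and 9.33, 9.28 and 9.33 unstimulated, and fell by 1.57 log2 (SE 0.192, 2.97-fold, adjusted p = 2.17e-05). Neither gene had an array of LPS with vehicle within 1 log2 unit of an unstimulated one.

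Genes of the same processes outside the list were read from 8 further lists of 139 symbols, of which 132 genes were tested. With LPS and vehicle 104 fell, 1 rose and 27 were not called, with a median of -1.04 log2, against 16.3% lower and 13.5% higher among all genes tested. Of 21 other motors, bundlers and cytokinesis genes 20 fell (median -1.74 log2), among them Kif14 (-2.02), a midbody kinesin, Cit (-1.81), the citron kinase of cytokinesis, and Kif18b (-2.09), a kinesin that shortens astral microtubules. The exception, Trip13, which disassembles the checkpoint complex, differed by -0.35 log2 (SE 0.125, adjusted p = 0.0502), and it was called lower in 8 of 26 alternative settings. All 3 other condensin genes fell: Ncapg2 (-1.98), Ncapd3 (-1.37) and Ncaph2 (-0.79).

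Of 27 other kinetochore and centromere genes, 24 fell (median -1.56 log2), including Knstrn, a spindle and kinetochore protein (-2.27), Knl1, the scaffold that recruits the checkpoint (-2.24), and Cenpi, of the inner kinetochore (-1.60). One gene of this list rose. Zwint, which links Knl1 to the dynein-recruiting complex of the outer kinetochore, read 9.58, 9.72 and 9.61 with LPS and vehicle, against 8.71, 8.82 and 8.59 unstimulated. It was higher by 0.93 log2 (SE 0.0859, 1.91-fold, adjusted p = 1.54e-06), its groups did not overlap, and it was higher by 0.88, 0.97 and 0.90 log2 with LPS and 13-HDHEA, 16-HDHEA and both, groups that share the unstimulated arrays. It was the only gene of the 132 called higher with LPS and vehicle.

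Of 17 core subunits and regulators of the anaphase-promoting complex 9 fell, with a median of -0.30 log2, and this count was 4 when experiment 3 was left out and 6 when arrays were centred on their medians. Fbxo5, which encodes the inhibitor Emi1, fell by 1.93 log2 (SE 0.156, adjusted p = 4.43e-07). Of the core subunits, Anapc5 fell by 0.85 log2 (SE 0.0636, adjusted p = 2.16e-07) and Cdc23 fell by 0.58 (SE 0.0808, adjusted p = 6.66e-05). Anapc15, named after its value was seen because it had the largest fall of the core subunits, fell by 1.17 log2 (SE 0.162, adjusted p = 6.66e-05). Among those not called, Anapc10 differed by 0.27, Cdc26 by 0.12, Anapc4 by 0.10 and Cdc16 by 0.01 log2. The others not called were Anapc11 (-0.256), Cdc27 (-0.0584), Anapc16 (-0.0401) and Anapc7 (-0.00271). The value of Anapc10 was called higher when arrays were centred (0.33, adjusted p = 0.0427).

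Cohesin and separase genes fell in 12 of 15 cases (median -1.01 log2), such as Esco2, a cohesin acetyltransferase (-2.21), Cdca5, which encodes sororin (-1.38), and Rad21, the cohesin kleisin (-1.02). Wapl, which releases cohesin, differed by 0.06 log2 and was not called. Of 18 centrosome genes 12 fell (median -0.94), including Nek2 (-2.05), Stil (-1.83) and Haus1 (-1.09). Sass6 and Haus2 differed by 0.25 and 0.18 log2, with adjusted p of 0.0847 and 0.103, and both were called higher when arrays were centred. Of 12 other entry regulators 8 fell (median -0.88), and these included both the brake and the accelerator on Cdk1: Wee1, the inhibitory kinase (-2.23 log2), and Cdc25b, an activating phosphatase (-1.43). Mastl, the Greatwall kinase, fell by 1.72 log2.

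Of 19 transcription regulators of the cell cycle, 16 fell, with a median of -0.86 log2. This count was 13 when experiment 1 was left out and 14 when arrays were centred on their medians. The lowest adjusted p belonged to E2f2, an activator (-1.78), E2f7, an atypical repressor (-1.97), and Rbl1, the pocket protein p107 (-1.41). E2f8, another atypical repressor, fell by 2.33 log2, and Mybl2, which encodes B-Myb, fell by 1.45. E2f4 and E2f5, which act mostly with pocket proteins in resting cells, differed by 0.11 and 0.09 log2 and were not called.

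**Figure D3:**
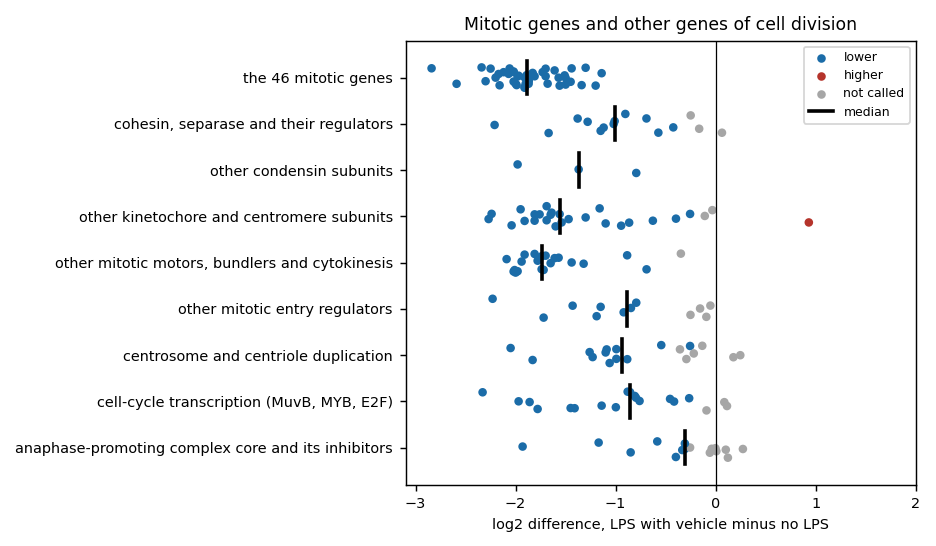
Each row is 1 list and each point 1 tested gene, placed by its log2 difference, LPS with vehicle minus unstimulated, with the list's median as a bar and colour for genes called lower, called higher or not called. The 46 mitotic genes in the top row all lie below -1, while the anaphase-promoting complex core spreads around a median of -0.30.

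With a compound present, all 46 genes were again lower than in unstimulated cells in each of the 3 groups. Of all genes tested, 17% were lower with LPS and 13-HDHEA, 16.3% with LPS and 16-HDHEA and 16.2% with LPS and both. The median differences of the 46 were -1.91, -1.92 and -1.78 log2, and the highest adjusted p were 0.000427, 0.00021 and 0.000379. The 46 were all lower by more than 2-fold, as were 3.44%, 3.36% and 3.28% of all genes tested, and had groups that did not overlap, as did 22.7%, 22.3% and 21.4%. These comparisons and that of LPS with vehicle share the same 3 unstimulated arrays, so they are not separate evidence of a fall. For all 46 genes the unstimulated group had the highest mean of the 5 groups.

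Averaged over the 46 genes, the arrays read 7.0, 7.36 and 7.30 with LPS and 13-HDHEA, 6.95, 7.34 and 7.36 with LPS and 16-HDHEA, 6.97, 7.58 and 7.43 with LPS and both, 7.0, 7.43 and 7.30 with LPS and vehicle, and 9.12, 9.07 and 9.11 unstimulated. The group means were 7.22 ± 0.19, 7.22 ± 0.23, 7.33 ± 0.32, 7.24 ± 0.22 and 9.10 ± 0.03 in the same order (SD, n = 3 each). The ranges of the 4 LPS groups thus overlapped, and experiment 1 gave the lowest array in each of them but not in the unstimulated group. Within experiments 2 and 3 the array with both read highest of the LPS arrays, and within experiment 1 it did not.

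**Figure D4:**
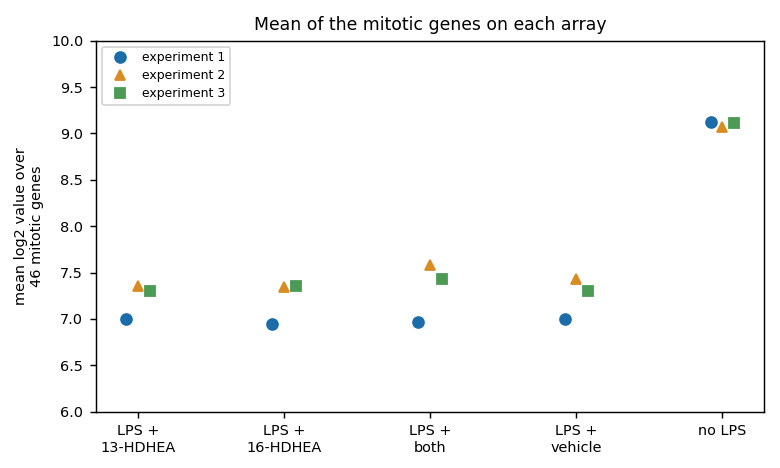
Points are the mean log2 value of the 46 mitotic genes on each of the 15 arrays, by group (x axis), with a symbol for each experiment. The 12 LPS arrays lie between 6.95 and 7.58 and the 3 unstimulated arrays between 9.07 and 9.12, with experiment 1 lowest in each LPS group.

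This pattern of the experiments was read gene by gene, as a description with no test, because it was noticed in the values. For 40 of the 46 genes (87.0%) experiment 1 was the lowest of the 3 experiments in each of the 4 LPS groups, against 5.11% of all genes tested. For none was it the highest in all 4, against 6.50% of all genes. In unstimulated cells experiment 1 was the lowest for 11 of the 46 (23.9%, against 30.9% of all genes) and the highest for 26 (56.5%, against 34.7%). Averaged over the LPS groups, experiment 1 minus the mean of experiments 2 and 3 had a median of -0.41 log2 over the 46 genes, from -0.67 for Birc5 to -0.12 for Incenp, against 0.00157 over all genes. In unstimulated cells the same median was 0.06. The labels give each experiment an identifier and nothing on how the experiments differed.

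Within groups, the median SD of the 46 genes was 0.24 log2 with LPS and 13-HDHEA, 0.23 with LPS and 16-HDHEA, 0.33 with LPS and both, 0.23 with LPS and vehicle and 0.08 unstimulated. Over all genes tested the median SD was 0.12 to 0.14 in every group. The mitotic genes thus varied more than most genes between the arrays of an LPS group, and less than most between unstimulated arrays.

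No mitotic gene was called between an LPS group given a compound and LPS with vehicle. In LPS with 13-HDHEA against LPS with vehicle, 0 of the 46 were called in limma, where 0.00646% of all genes tested were lower and 0% higher. In LPS with 16-HDHEA and in LPS with both, each against LPS with vehicle, 0 of the 46 were called, where 0% of all genes were. Every adjusted p of the 46 was 1, and without the experiment as a block none had an unadjusted p under 0.05 in any of these 3 comparisons, against 660, 460 and 539 of the 15468 genes. With the experiment as a block, 0 of the 46 were called as well, and the lowest adjusted p were 0.855, 1 and 0.943. With the block, unadjusted p under 0.05 were found for 0, 0 and 2 of the 46 with 13-HDHEA, 16-HDHEA and both, against 963, 686 and 791 of all genes. No gene of the 46 had groups that did not overlap. The shares of all genes, lower and higher, were 4.60% and 3.33% with 13-HDHEA, 3.59% and 3.57% with 16-HDHEA, and 3.41% and 3.01% with both. Overlap takes no account of the experiments, and the 46 genes varied more than most between the arrays of an LPS group.

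The intervals limit the size of a difference that could have been missed. All 46 of the 95% intervals lay within 1 log2 unit of 0 in each comparison, and 29, 31 and 29 lay within 0.5 with 13-HDHEA, 16-HDHEA and both. The farthest bounds were -0.63 (Foxm1) and 0.72 (Ccnb2) with 13-HDHEA, -0.66 (Cdc25c) and 0.78 (Ccnb2) with 16-HDHEA, and -0.65 (Cdc25c) and 0.93 (Ccnb2) with both. With the experiment as a block the intervals were narrower: 45, 46 and 43 lay within 0.5, and the farthest bounds were -0.49 and 0.52 with 13-HDHEA, -0.49 and 0.48 with 16-HDHEA, and -0.48 and 0.63 with both. The block takes the same experiment effect in all 5 groups. For the 46 genes, experiment 1 minus the mean of experiments 2 and 3 had a median of -0.41 log2 in the LPS groups and 0.06 unstimulated. The block thus describes these genes only in part. The medians over the 46 were -0.03, -0.04 and 0.09 log2, against -0.01, -0.00059 and -0.00379 over all genes. Leaving out 1 array turned the sign of each of these medians. That with 13-HDHEA became 0.06 without its experiment 1 array, that with 16-HDHEA became 0.08 without its experiment 1 array, and that with both became -0.03 without its experiment 2 array. The arrays of LPS with vehicle turned signs too. Without that of experiment 1 the median with both was -0.02, and without that of experiment 3 the median with 13-HDHEA was 0.02. Without that of experiment 2 the medians with 13-HDHEA and 16-HDHEA were 0.06 and 0.04. Dropping 1 array leaves its experiment in only the other group compared, so differences between experiments enter the median. The median with both turned sign only in such drops, and that with 13-HDHEA also without the whole of experiment 2 (0.0131).

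The genes with the smallest p had small differences, of uneven size between the experiments. Bub1 read 6.87, 7.36 and 7.34 with LPS and 13-HDHEA, against 7.28, 7.37 and 7.37 with LPS and vehicle. Its difference of -0.15 log2 (95% interval -0.44 to 0.14) came mostly from experiment 1. Cenpf read 5.66, 6.34 and 5.74 with LPS and 13-HDHEA, against 5.80, 6.45 and 6.10 with LPS and vehicle, a difference of -0.20 (-0.62 to 0.22) that was below 0 in all 3 experiments. Nusap1 and Melk differed by -0.17 and -0.18 log2 with 13-HDHEA, and they and Bub1 were also below 0 in all 3 experiments. With 16-HDHEA the genes with the smallest p were Aspm (-0.11), Cdc25c (-0.17), Cenpe (-0.11) and Cdca8. All but Aspm were below 0 in all 3 experiments, and Aspm was above 0 in experiment 1. Cdca8 read 6.55, 7.0 and 6.86 with LPS and 16-HDHEA, against 6.71, 7.15 and 6.92 with LPS and vehicle, a difference of -0.13 log2 (-0.51 to 0.25).

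With both compounds at the lower dose, the signs leaned the other way. Nusap1 read 4.91, 5.49 and 5.29 with LPS and both, against 4.87, 5.10 and 5.07 with LPS and vehicle, and differed by 0.22 log2 (-0.12 to 0.55, or 0.00417 to 0.43 with the experiment as a block, where limma's adjusted p was 0.968). Ccnb2 read 6.60, 7.77 and 7.09 with LPS and both, against 6.52, 7.18 and 6.76 with LPS and vehicle, and differed by 0.33 (-0.27 to 0.93, or 0.04 to 0.63 with the block, adjusted p = 0.943), the largest difference of any mitotic gene in these 3 comparisons. Even so its groups overlapped. Top2a and Anln differed by 0.18 and 0.15 log2 with both.

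Counts of signs describe the same lean without a test. With 13-HDHEA 30 of the 46 differences were below 0, where 53.7% of all genes were, and with 16-HDHEA 32 of 46, where 50.3% were. With both, 8 of 46 were below 0, where 51.5% of all genes were. Differences above 0 in all 3 experiments numbered 2, 4 and 19 of the 46 with 13-HDHEA, 16-HDHEA and both, where 11.7%, 12.5% and 10.9% of all genes had them. Differences below 0 in all 3 numbered 11, 7 and 1, where 14.8%, 12.6% and 11.7% had them. The 46 genes move together across arrays, so these counts rest on 3 experiments and not on 46 measurements, and all 3 comparisons share the arrays of LPS with vehicle. By experiment, the median difference with both was 0.00109, 0.14 and 0.12 log2 in experiments 1, 2 and 3. It was -0.01, -0.03 and -0.02 with 13-HDHEA and -0.09, -0.05 and 0.03 with 16-HDHEA.

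The 2 compounds are positional isomers that differ in where the hydroxyl group sits on the docosahexaenoyl chain, and they were compared at the same dose and time, as 1 pair. In LPS with 13-HDHEA minus LPS with 16-HDHEA, 0 of the 46 genes were called, where 0.00646% of all genes were lower and 0% higher, and every adjusted p was 1. Without the experiment as a block none of the 46 had an unadjusted p under 0.05, against 480 of all genes. With it, 1 of the 46 did, against 654 of all genes: Cenpa, with a difference of 0.26 log2 (0.03 to 0.48), and the lowest adjusted p was 0.999. None had groups that did not overlap, again without regard to the experiments, against 3.58% lower and 3.01% higher of all genes. The median difference was -0.0038 log2 (-0.139 to 0.104 with arrays or experiments left out), with values from -0.20 to 0.26, and 24 of the 46 below 0, where 54.2% of all genes were. All 46 intervals lay within 1 log2 unit of 0, and 27 within 0.5 (45 with the block), which limits the difference between the isomers without showing that they act alike.

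Cenpa had the largest difference between the isomers. It read 5.80, 6.53 and 6.02 with LPS and 13-HDHEA, against 5.59, 6.01 and 5.97 with LPS and 16-HDHEA, a difference of 0.26 log2 (-0.21 to 0.72) with most of it in experiment 2. Aspm read 5.34, 5.67 and 5.38 with LPS and 13-HDHEA, against 5.17, 5.41 and 5.21 with LPS and 16-HDHEA, a difference of 0.20 (-0.12 to 0.52). Nusap1 went the opposite way, with 4.65, 4.86 and 5.04 with LPS and 13-HDHEA, against 4.78, 5.23 and 5.13 with LPS and 16-HDHEA, a difference of -0.20 (-0.53 to 0.14). Cdca8 differed by 0.18 log2. For all 4 genes the sign was the same in each experiment, but the ranges of the groups overlapped. The combined treatment held 2.5 µM of each compound rather than 5.0 µM of 1, so its values stand beside those of the single compounds without a comparison of dose.

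**Figure D5:**
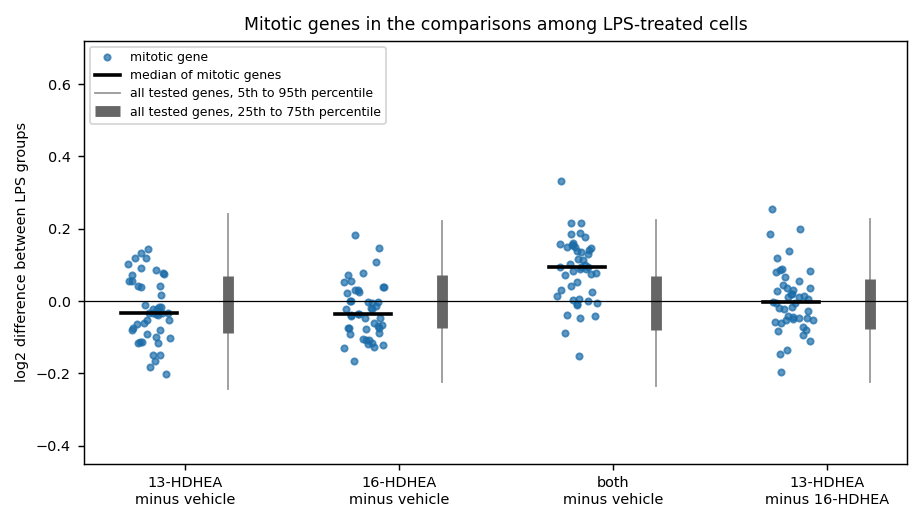
Each point is 1 of the 46 mitotic genes, placed by its log2 difference in 4 comparisons among the LPS groups: 13-HDHEA, 16-HDHEA and both against vehicle, and 13-HDHEA against 16-HDHEA, with their median as a black bar and the middle ranges of all tested genes in grey. All points lie between -0.20 and 0.33 log2, and no gene was called.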

How the data were processed

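Total RNA (100 ng) of 15 RAW264.7 samples was labelled with an Affymetrix whole-transcript sense assay, per the labels' protocols. The deposited values are log2 signals per probe set, made by the authors with RMA per the submitters' processing notes. The RMA version, chip definition and genome build were not given in the sources used here. RMA equalises the distributions of the arrays, which hides a change common to most genes, and it understates differences of dim probe sets.

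Of 41345 probe sets, 23521 had 1 symbol in the platform's gene table, 1814 had several and were not used, and the rest were not listed there. The brightest probe set was kept for each of 22180 genes. The 15468 genes above their array's 40th percentile on at least 3 arrays were tested, and 6712 were not. No detection p-values were used.

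One limma model (limma 3.58.1, R 4.3.3) with 5 group means was fitted to all 15 arrays, with 10 residual degrees of freedom per gene. Tests were two-sided with Benjamini-Hochberg adjustment over all 15468 genes and 95% intervals, and a gene was called, or said to rise or fall, at an adjusted p under 0.05. The calculation was tested on simulated data. Differences are first group minus second on the log2 scale, and folds are 2 to the power of their size. With 3 samples a group the p-values measure the spread between these 3 experiments on 1 line.

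Sample titles number the replicates 1 to 3, and the labels tie each number to 1 experiment identifier. After group means were removed, the 30 same-numbered pairs of arrays correlated at 0.0835 to 0.404, 28 of them above 0.1, and all 15 arrays correlated best with their own number. The experiment was therefore also fitted as a block.

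The genes and all lists were chosen with earlier results of these data known, so counts over lists are given beside those over all genes, with no test of a list. Named are the genes of each role with the largest and smallest LPS difference, a fixed set of well-known mitotic genes, the 4 genes with the smallest p in each comparison among LPS groups, the 3 with the smallest p in each further list, and any that went against their list. Others appear with a value only. Promoters came from the RefSeq table of GRCm38.p6, by symbol, for 37 of 48 genes, and the first entry was used for 2 genes with several. Alternatives were the block, 2 other filters, the mean over probe sets, arrays centred on their median, quantile normalization repeated, a variance trend with robust fitting, only the groups compared, and each array or experiment left out.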

Additional observations from a re-analysis of the deposited data

How the results depend on the processing

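In all 26 alternative settings 46 of 46 genes were called lower in each of the 4 LPS groups against unstimulated cells, and 0 of 46 in the 4 comparisons among LPS groups. With the replicate block, the lowest adjusted p of a mitotic gene were 0.855 for 13-HDHEA, 1 for 16-HDHEA and 0.943 for both, each against vehicle, and 0.999 for 13-HDHEA against 16-HDHEA. The block changed no call of the 46 genes. The median fall with LPS and vehicle stayed between -1.99 and -1.73 log2. None of the medians among LPS groups kept its sign in every setting. With arrays or experiments left out, they ran from -0.128 to 0.0629 for 13-HDHEA, from -0.15 to 0.0838 for 16-HDHEA, from -0.0256 to 0.264 for both, and from -0.139 to 0.104 between the isomers. The median for 13-HDHEA was also -0.0143 with centred arrays, -0.0127 with quantile normalization repeated and 0.0131 without the whole of experiment 2. Dropping 1 array of a compared group leaves its experiment in only the other group. The median for both changed sign only in such drops.

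With arrays or experiments left out, some uncalled values changed sign. Bub1 with 13-HDHEA ran from -0.236 to 0.00899 (without the experiment 1 array of that group). With 16-HDHEA, Cdc25c ran from -0.34 to 0.0148 (without the experiment 1 array of that group), Aspm from -0.232 to 0.0547 and Cenpe from -0.221 to 0.0148 (both without the experiment 2 array of LPS with vehicle). With LPS, Wapl ran from -0.0134 (without the experiment 3 unstimulated array) to 0.11. Cdc16 ran from -0.0465 to 0.0577, and was -0.0277, -0.0465 and -0.014 without the experiment 2 array of LPS with vehicle, the experiment 3 unstimulated array and the whole of experiment 3. Sass6 (0.304) and Haus2 (0.236) were called higher with centred arrays, Sass6 also with a variance trend and Haus2 also with quantile normalization repeated. Over the 8 further lists, 92 to 107 genes were called lower and 1 to 4 higher. In LPS with vehicle against unstimulated cells, 5313 of all genes were called with the replicate block and 4002 with only the groups compared, against 4616 in the main fit. No cause of these changes was tested.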
